A study of Mus musculus with 2 samples.

Results

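The stefin A genes of the mouse form a tandem family on chromosome 16. The members described here are the 9 genes Stfa1, Stfa2, Stfa3, Stfa2l1, BC100530, BC117090, Gm5483, Gm5416 and 2010005H15Rik, out of 45318 genes in the deposited count table. They were chosen by matching their Ensembl identifiers to these symbols, and the family was picked with its counts in both libraries already known. Its ratios are therefore given as a description. Current RefSeq names for 4 of them differ: Gm5483 is Cstdc4, Gm5416 is Csta3, 2010005H15Rik is Csta2 and BC100530 is Cstdc5.

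There were 2 libraries of poly(A)-selected RNA, each from GFP-positive leukaemia cells sorted out of the bone marrow of leukaemic C57Bl/6 mice. One came from mice given brequinar, which blocks dihydroorotate dehydrogenase and so the synthesis of new pyrimidines. The other came from mice given vehicle. The cells of both libraries carry the leukaemia fusion gene MLL/AF9 and GFP. The sources used here do not give the vector, the dose, the length of treatment, or the number, sex and age of the mice. With 1 library per treatment no difference has a replicate check, and no p-value is given. Gene counts summed to 47950714 in the brequinar library and 47935476 in the vehicle library. The homeobox genes Hoxa9 and Meis1, which MLL fusions keep active, stood at 231 and 87.4 CPM in the brequinar library and at 238 and 71.6 CPM in the vehicle library. Levels are in CPM, counts scaled to library size with TMM factors.

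Stefins are small cytosolic inhibitors of papain-like cysteine proteases, the lysosomal cathepsins, and belong to the cystatin superfamily. Human has a single stefin A gene, CSTA, whereas the mouse carries a tandem cluster of copies. In mouse marrow, stefin A transcripts are known from maturing granulocytes, and in skin from keratinocytes.

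The members lie between positions 36156811 and 36455392 of chromosome 16 (GRCm38), a span of 299 kb, with 5 on the plus strand and 4 on the minus strand. In order along the chromosome they are Stfa2l1, Gm5483, Gm5416, 2010005H15Rik and Stfa1 on the plus strand, then BC117090, BC100530, Stfa2 and Stfa3 on the minus strand. Each has 3 coding exons, of which the second (102 bases) and the third (123 bases before the stop codon) are equally long in all 9. The first holds 84 bases in Stfa2, Stfa2l1 and Stfa3, which encode 103 amino acids. It holds 66 bases in 5 members, which encode 97 amino acids, and 63 bases in BC117090, which encodes 96. For 2010005H15Rik and Stfa1, with 3 and 2 annotated coding transcripts, the shortest coding sequence was used, here and for coding identity.

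Because the members lie together and all differed in the same direction, the sequence just upstream of their starts is shown for some of them. RefSeq's promoter table (GRCm38.p6; 250 bases before and 50 after each annotated start) matched 8 of the 9 members, and BC117090 had no entry. Of these 8 windows, 7 held the 13-base run ACCTTTAAAACCC, with a TATA-like TTTAAA core. The 80 bases that end with this run are printed 5′ to 3′ for the 4 members in which they overlap no annotated exon. Capitals mark the shared run and any match to the GATA motif (AGATAA or TGATAA, on either strand). In Stfa3 the last base of a GATA match is also the first base of the run.
Stfa2l1 (chr16:36156708-36156787, plus strand): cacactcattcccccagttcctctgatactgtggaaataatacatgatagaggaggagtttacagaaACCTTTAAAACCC
Gm5483 (chr16:36184113-36184192, plus strand): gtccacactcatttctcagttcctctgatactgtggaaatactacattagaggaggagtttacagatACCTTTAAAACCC
Gm5416 (chr16:36210256-36210335, plus strand): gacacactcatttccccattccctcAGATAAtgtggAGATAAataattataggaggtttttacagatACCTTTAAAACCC
Stfa3 (chr16:36455414-36455493, minus strand): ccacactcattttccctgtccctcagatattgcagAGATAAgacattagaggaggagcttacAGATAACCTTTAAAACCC

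The run was looked for after the sequences had been seen, as the longest shared by at least 7 of the 8 windows, and 1 other run of 13 bases met the same condition. The run shown occurs on either strand in 9 of 32851 promoter windows (0.0274%), these 7 included. With the RefSeq start counted as position 0, its last base lies between -24 and -20 in Stfa2l1, Gm5483, Stfa1, Stfa2 and Stfa3. In Gm5416, whose RefSeq start is the first base of the start codon, it lies at -68, and in BC100530 it falls on the start itself. The other shared run begins 32 or 33 bases after the beginning of the first in all 7 members, Gm5416 and BC100530 included. In pairwise alignments, the 80-base windows of the 7 members were 76.9% to 94.8% identical, with Stfa2l1 and Gm5483 the closest pair. The window of 2010005H15Rik, whose RefSeq start lies in an upstream noncoding exon, does not hold the run.

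Motifs of 4 myeloid and erythroid factors were searched on both strands of the 8 windows. GAGGAA, a core of the PU.1 motif, was found in 6 windows, against 28.3% of all promoters. TGTGGT, a RUNX motif, was found in 7, against 16.8%. TTGCNNAA, a C/EBP motif, was found in Gm5416, Stfa1 and BC100530, against 10.8% of all promoters. The GATA motif was found in Gm5416, Stfa1, BC100530 and Stfa3, against 18.6%. Matches of different motifs did not overlap, apart from the TTTAAA core inside the run and the shared base in Stfa3. Since the members are copies of one another, these matches are not independent of each other, and a match is not evidence of binding.

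Brequinar cells had more of every stefin A transcript: all 9 members exceeded the vehicle library by 2-fold or more, on log2 ratios computed with a prior count of 2. Of all 11504 genes that reached a mean of 1 CPM, 6.45% did so. All 9 also passed 4-fold (2.24% of all genes) and 16-fold (0.243%), and for all 9 the whole counting interval lay above 2-fold (5.22%). As the family was chosen for these values, nothing is read from the shares. Summed over the family, the level was 17747 CPM in the brequinar library and 714 CPM in the vehicle library, 24.9-fold higher with an interval of 24.6 to 25.1. The family held 1.72% of all gene counts in the brequinar library and 0.0737% in the vehicle library. Intervals here and below are exact 95% intervals of counting error only. Reads amplified by PCR and carrying no molecular identifier are not separate molecules, so even these can be too narrow. The median log2 ratio of the members was 5.81, beside 0.00029 over all genes tested. In bulk RNA, more cells of a type and more RNA per cell cannot be told apart.

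**Figure D1:**
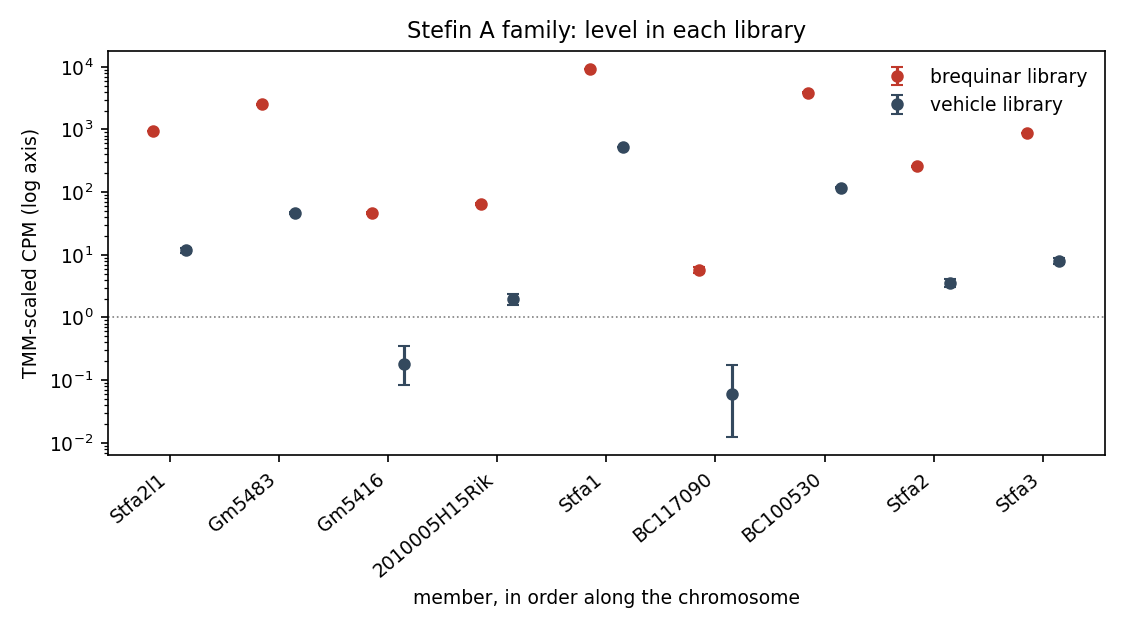
Level of each stefin A member, in order along the chromosome, as TMM-scaled CPM on a log axis in the brequinar library (red, left of each pair) and the vehicle library (dark, right of each pair). Bars are exact 95% counting intervals, the dotted line marks 1 CPM, and in all 9 genes the brequinar point lies above the vehicle point, from 9151 against 524 CPM for Stfa1 to 5.70 against 0.0606 CPM for BC117090.

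Stfa1 carried the most counts of the family in both libraries. It had 425061 counts in the brequinar library and 25935 in the vehicle library, or 9151 and 524 CPM. That is a 17.5-fold difference (interval 17.2 to 17.7), the smallest fold of the 9 members. BC100530, whose coding sequence is the closest to that of Stfa1, had 180283 counts in the brequinar library and 5836 in the vehicle library, or 3881 and 118 CPM. Its fold of 32.9 (interval 32.1 to 33.8) lay above that of Stfa1, with the intervals apart. BC117090, also close to BC100530 in sequence, was scarce, with 265 counts in the brequinar library and 3 in the vehicle library. Its fold of 94.1 is known only between 31.8 and 459.

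Gm5416, which resembles these 3 less closely, had 2176 counts in the brequinar library and 9 in the vehicle library, or 46.8 and 0.182 CPM. Its fold of 258 (interval 135 to 564) was the largest in the family and, by log2 ratio (7.71), the largest of all 11504 genes tested. BC117090 and Gm5416 lay below 1 CPM in the vehicle library and passed the filter through the brequinar library alone, so both had to differ. The other 7 members were above 1 CPM in each library.

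Gm5483 had 116391 counts in the brequinar library and 2301 in the vehicle library, or 2506 and 46.5 CPM, a 53.9-fold difference (interval 51.7 to 56.2). Its closest copy, 2010005H15Rik, had 2998 counts in the brequinar library and 96 in the vehicle library, or 64.5 and 1.94 CPM, a 33.3-fold difference (interval 27.1 to 41.2). The fold intervals of this pair lay apart, although their coding sequences are 96.9% identical.

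The 3 members that encode 103 amino acids had folds between 72.6 and 111. Stfa3 had 40960 counts in the brequinar library and 394 in the vehicle library, or 882 and 7.96 CPM, a 111-fold difference (interval 100.3 to 123). Stfa2l1 had 44214 counts in the brequinar library and 584 in the vehicle library, or 952 and 11.8 CPM, an 80.6-fold difference (interval 74.3 to 87.7). Stfa2 had 12058 counts in the brequinar library and 177 in the vehicle library, or 259.6 and 3.58 CPM. Its 72.6-fold difference (interval 62.6 to 84.7) overlapped that of Stfa2l1. Together these 3 genes summed to 2093 CPM in the brequinar library and 23.3 CPM in the vehicle library, 89.7-fold higher (interval 84.6 to 95.1).

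From the smallest fold to the largest, the order was Stfa1, BC100530, 2010005H15Rik, Gm5483, Stfa2, Stfa2l1, BC117090, Stfa3 and Gm5416. The counting intervals of BC100530 and 2010005H15Rik overlapped. So did those of the neighbours in this order from Stfa2 through Stfa3. The intervals of Stfa1 and BC100530, of 2010005H15Rik and Gm5483, of Gm5483 and Stfa2, and of Stfa3 and Gm5416 lay apart. This compares these libraries only, as no spread between animals is known.

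The make-up of the family's counts therefore differed between the libraries. Stfa1 gave 51.6% of them in the brequinar library (exact binomial interval 51.5% to 51.7%) and 73.4% in the vehicle library (72.9% to 73.9%). BC100530 gave 21.9% in the brequinar library and 16.5% in the vehicle library, and Gm5483 gave 14.1% and 6.51%. Stfa2l1 gave 5.36% in the brequinar library and 1.65% in the vehicle library, and Stfa3 gave 4.97% and 1.12%. Without Stfa1, the other 8 members summed to 8597 CPM in the brequinar library and 189.97 CPM in the vehicle library. That is a 45.3-fold difference (interval 44.3 to 46.2).

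**Figure D2:**
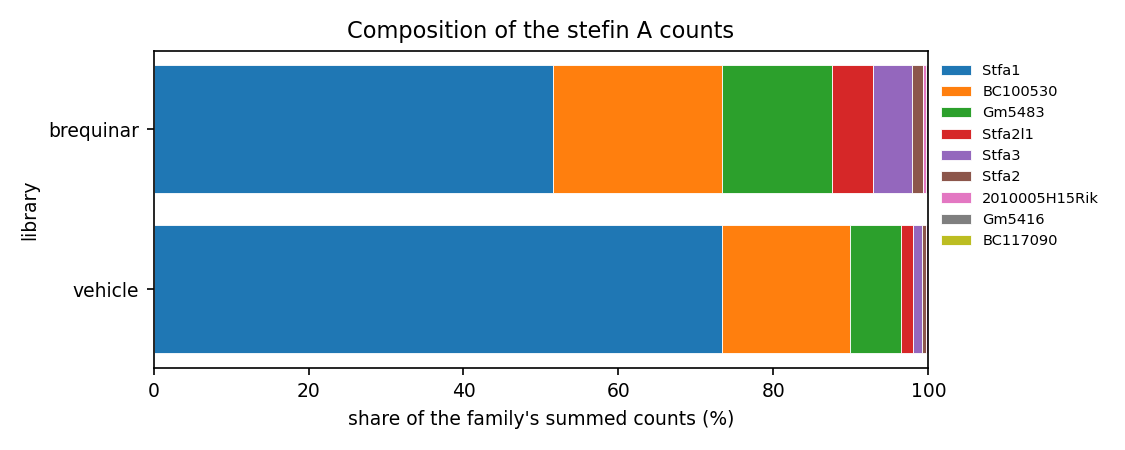
Share of each member in the family's summed counts, in percent, in the brequinar library (upper bar) and the vehicle library (lower bar). The Stfa1 part covers 51.6% of the brequinar bar and 73.4% of the vehicle bar, and the BC100530, Gm5483, Stfa2l1 and Stfa3 parts are wider in the brequinar bar.

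Levels of different genes can be compared only per length. Per kilobase of merged annotated exons, Stfa1 stood at 12888 CPM per kb in the brequinar library and 738 in the vehicle library, and BC100530 at 4913 and 149. Both libraries then had Stfa2l1 next, at 2272 and 28.2 CPM per kb. Stfa3 (2140 and 19.3) and Gm5483 (1346 and 25.0) followed, and their order differed between the libraries. Stfa2 was sixth in both, at 551 and 7.59 CPM per kb. Gm5416 (159 and 0.619) and 2010005H15Rik (101.0 and 3.04) came after it, again in a different order in each library. BC117090 was the lowest in both, at 14.7 and 0.157 CPM per kb.

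The annotated length of Gm5483 includes a retained-intron transcript of 1859 bases. Over its coding transcript of 414 bases it stood at 6052 CPM per kb in the brequinar library and 112 in the vehicle library, which places it at rank 3 in both, behind BC100530 at 6270 and 191 on its own coding transcript. The sources used here do not name the gene models behind the deposited counts. The identifier version in the table differs from that of the annotation for 5 of the 9 members, among them Gm5483 and Stfa1, so these lengths are approximate. Gm5416 is annotated with its coding bases only, and reads from its untranslated ends would not be counted there.

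The coding sequences of the 36 pairs of members were 76.9% to 98.0% identical over aligned bases, with a median of 81.7%. The closest pair was Stfa1 and BC100530 (98.0%), followed by Gm5483 with 2010005H15Rik (96.9%), Stfa2 with Stfa2l1 (96.5%) and BC117090 with BC100530 (96.2%). Stfa3 stood by itself, at most 84.7% identical to another member, and Gm5416 at most 88.4%. Sums over close copies do not depend on how reads were divided between them, apart from reads set aside as multimapping. Stfa1, BC100530 and BC117090 summed to 13037 CPM in the brequinar library and 642 CPM in the vehicle library, 20.3-fold higher (interval 20.1 to 20.5). Gm5483 and 2010005H15Rik summed to 2570.2 and 48.4 CPM, 53.1-fold higher (interval 51.0 to 55.3). Stfa2 and Stfa2l1 summed to 1211 and 15.4 CPM, 78.8-fold higher (interval 73.3 to 84.7). These 3 intervals lay apart.

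**Figure D3:**
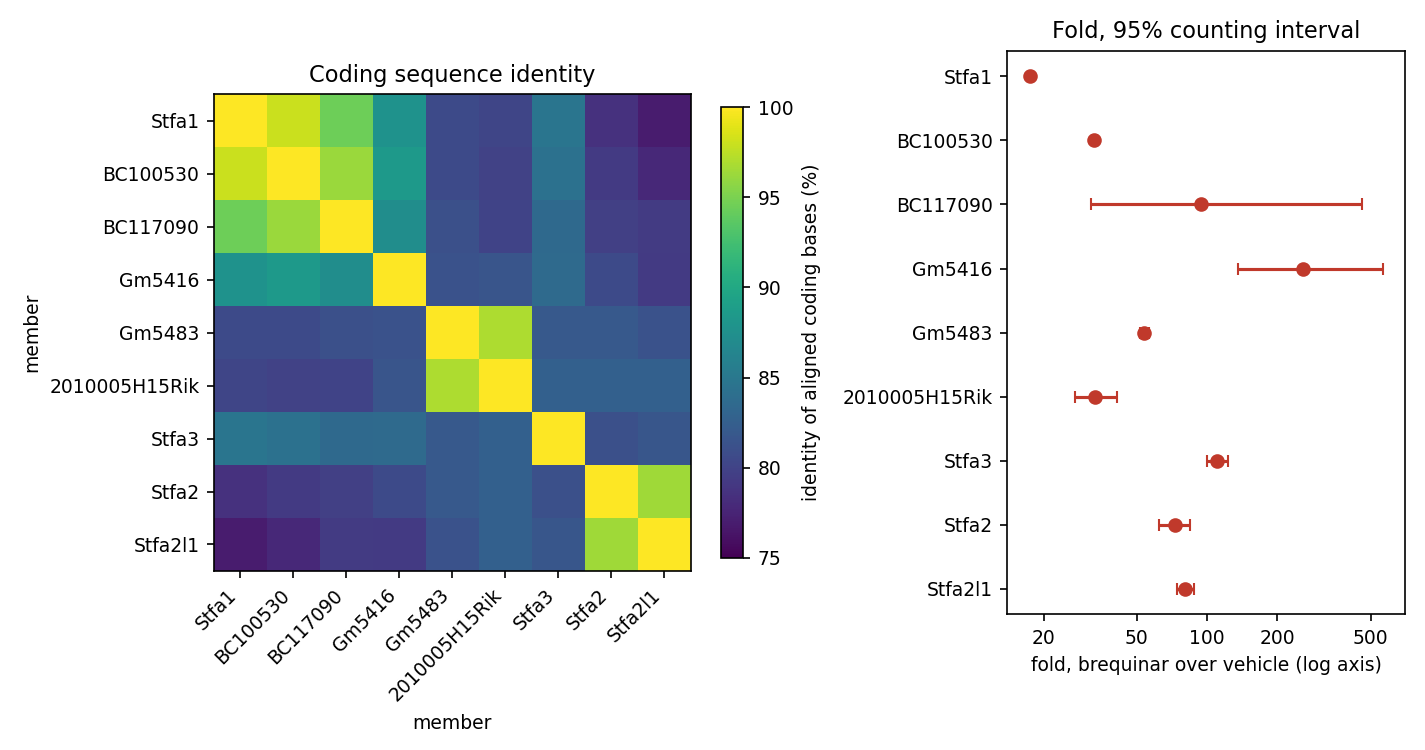
Left, identity of aligned coding bases between each pair of members, in percent. Right, fold of brequinar over vehicle for each member on a log axis with its exact 95% counting interval; Stfa1 has the lowest fold (17.5), and the wide bars of BC117090 and Gm5416 come from 3 and 9 vehicle counts.

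Reads that match several genes equally well are set apart in the deposited table, so copies can lose counts. Every stretch of 101 bases, the length of a read, in the annotated transcripts of each member was compared with all annotated transcripts. In Stfa2l1, Gm5416, Stfa2 and Stfa3 no such stretch occurred in another gene. The share that did was 2.37% in Gm5483, 5.46% in 2010005H15Rik and 4.93% in Stfa1. It was 13.2% in BC117090 and 15.2% in BC100530. Reads came in pairs, and the mate of a read can fall outside a shared stretch. These shares are therefore not shares of counts lost. In Gm5483, 44 of 1860 stretches were shared, 34 of them with 2010005H15Rik. Most of the 1860 come from its retained-intron transcript, so the share is not that of its 414-base coding transcript. The stretches of BC100530 were shared with Stfa1, BC117090 and the antisense gene Gm15845, which overlaps its exons by 145 bases. Reads there cannot be assigned with certainty, since the strand setting of the counting is unstated. Unannotated genomic copies were not searched. Multimapping reads made up 6.92% of all reads in the brequinar library and 7.39% in the vehicle library, and the members' part in them is not known.

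Within 1 Mb on each side, 41 other genes were in the table and 19 reached a mean of 1 CPM. Of these 19, 1 was at least 2-fold higher, beside 6.45% of all genes tested, and 1 was at least 2-fold lower, beside 4.4%. Their median log2 ratio was -0.02, and the shares past 2-fold are near those over all genes. Below the filter, Cd86, which encodes a costimulatory molecule and lies 210.7 kb beyond Stfa3, had 69 counts in the brequinar library and 15 in the vehicle library, 4.90-fold higher (interval 2.78 to 9.22). The nearest measured gene on the side of Stfa2l1 was Ccdc58, 85.1 kb away, at 19.9 CPM in the brequinar library and 20.2 CPM in the vehicle library. Fam162a, which starts 85.2 kb away on the same side, stood at 71.1 and 38.0 CPM. It was 1.87-fold higher (interval 1.77 to 1.98), short of 2-fold. The nearest on the side of Stfa3 was Slc15a2, a peptide transporter gene 330 kb away, at 2.65 and 3.74 CPM. Parp14, an ADP-ribosyltransferase gene, was 2.08-fold higher, at 42.0 CPM in the brequinar library and 20.2 CPM in the vehicle library, and it fell short of 2-fold when scaled by total counts. Pdia5, a protein disulphide isomerase gene, was 2.78-fold lower, at 6.37 CPM in the brequinar library and 17.7 CPM in the vehicle library.

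Csta1, a further stefin A gene 25.6 kb outside the family's span, had 0 counts in both libraries, which allows up to 0.0646 CPM in the brequinar library and 0.0606 CPM in the vehicle library (3 counts each). Inside the span, 16 other annotated genes were in the table. Most of them were small nuclear RNA genes, and 13 of the 16 had no count in either library. The libraries were poly(A)-selected, so nothing is read from the zeros of small nuclear RNA genes. The unprocessed pseudogene Gm7260, between BC100530 and Stfa2, was the only one of these 16 genes above the filter. It had 166 counts in the brequinar library and 7 in the vehicle library (25.3-fold higher, interval 12.0 to 63.8). Its level was 3.57 CPM in the brequinar library and 0.141 CPM in the vehicle library. Like BC117090 and Gm5416, it passed the filter through the brequinar library alone and so had to differ.

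**Figure D4:**
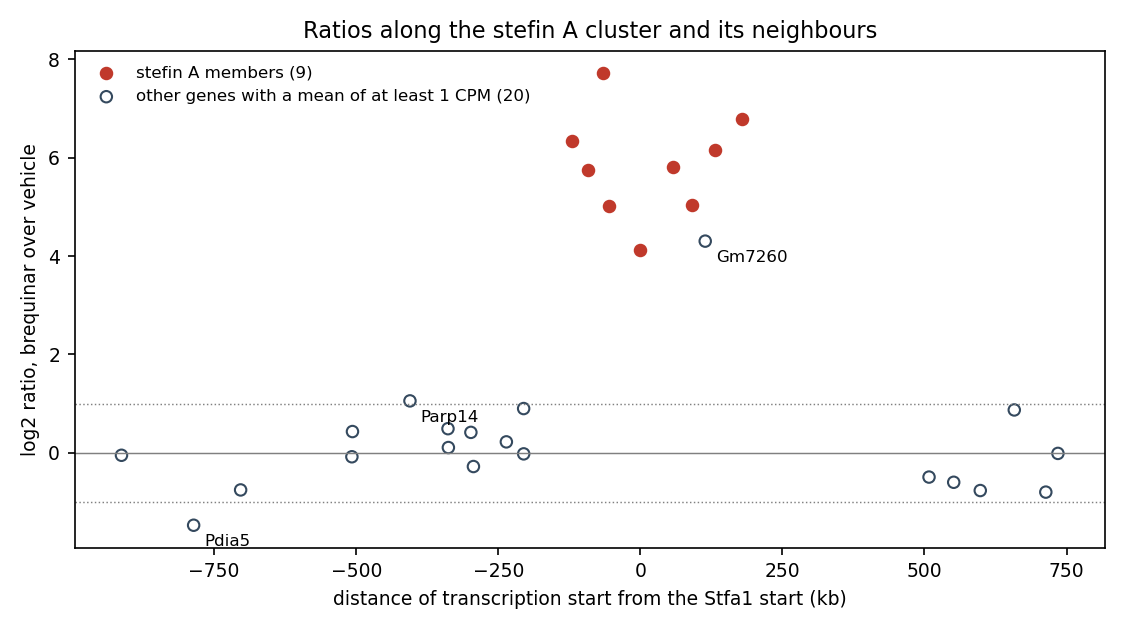
Log2 ratio of brequinar over vehicle against the distance of each gene's start from the Stfa1 start, in kb, for the 9 members (filled) and the 20 other genes that reached a mean of 1 CPM within 1 Mb of the family's span (open). Dotted lines mark 2-fold. The members lie between 4.13 and 7.71, Gm7260 lies among them at 4.30, and the other genes lie between -1.47 and 1.06. Gm7260, Gm5416 and BC117090 passed the filter through the brequinar library alone.

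In a list of 11 genes, the cysteine cathepsins and legumain, 8 were measured, with a median log2 ratio of 0.03. Of the 7 measured cathepsins, 0 passed 2-fold in either direction, beside 6.45% of all genes higher and 4.4% lower. Ctsb, which encodes cathepsin B, stood at 728 CPM in the brequinar library and 520 CPM in the vehicle library, and Ctsh (cathepsin H) at 98.7 and 59.0 CPM. Ctsl (cathepsin L) stood at 6.14 CPM in the brequinar library and 9.20 CPM in the vehicle library, and Ctss (cathepsin S) at 14.2 and 22.9 CPM. The 1 gene of the list past 2-fold was Lgmn, at 5.38 CPM in the brequinar library and 2.49 CPM in the vehicle library, with a fold interval of 1.74 to 2.71. It encodes legumain, an asparaginyl endopeptidase that is not a papain-like cathepsin.

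Among 18 other cystatin superfamily genes 16 were found, 10 of them with no count in either library, and 3 were measured. None of these 3 passed 2-fold (6.45% of all genes were higher and 4.4% lower), though Cst7 passed it downward when scaled by total counts. Cstb, which encodes stefin B, the other cytosolic stefin, stood at 56.9 CPM in the brequinar library and 48.9 CPM in the vehicle library. Cst3, which encodes the secreted inhibitor cystatin C, stood at 363 and 383 CPM. Cst7, which encodes cystatin F, stood at 26.4 and 50.6 CPM.

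Of 10 measured genes for other protease inhibitors of myeloid cells, 4 passed 2-fold upward (6.45% of all genes did) and none was lower (4.4%), with a median log2 ratio of 0.51. Serpina3f and Serpina3g, genes of a mouse serpin cluster, stood at 24.3 and 53.9 CPM in the brequinar library and at 2.61 and 11.2 CPM in the vehicle library. Wfdc21, a gene of the whey acidic protein family, stood at 55.0 CPM in the brequinar library and 7.54 CPM in the vehicle library. Timp2, an inhibitor of metalloproteinases, stood at 41.6 and 11.6 CPM. Serpina3f, with the largest fold of these 10, was 9.31-fold higher (interval 7.75 to 11.3), below the interval of every stefin A member. Below the filter, Serpinb10 of the same list had 44 counts in the brequinar library and 1 in the vehicle library, a ratio of 46.9 with an interval of 7.98 to 1893.

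Among 4253 genes outside the family that reached a mean of 50 CPM, the 5 whose log2 ratio lay nearest to that of the summed family (4.64) were C5ar1 (4.50), Mmp9 (4.78), S100a9 (4.35), S100a8 (4.34) and Lcn2 (4.12). This likeness rests on 2 libraries. C5ar1 encodes the receptor of the complement fragment C5a, Mmp9 a gelatinase of tertiary granules, S100a8 and S100a9 the subunits of calprotectin, and Lcn2 a siderophore-binding protein of secondary granules. Mmp9 was the single gene of the 4253 at or above the ratio of the summed family. That ratio is weighted by Stfa1 and lies below the members' median of 5.81. Among all 11504 genes tested, the members ranked 1 to 4, 6, 7, 10, 11 and 22 by log2 ratio. Genes with a mean below 50 CPM thus also lay among the members. Gm5416 (rank 1) and BC117090 (rank 6) rest on 9 and 3 vehicle counts and passed the filter through the brequinar library alone. As the family was picked with its values known, nothing is read from these ranks. In a list of 20 maturing neutrophil genes, to which the 5 nearest genes belong, 19 passed 2-fold upward (6.45% of all genes did). Their median log2 ratio was 3.05 over the 20. As this list was chosen with earlier results of these data known, nothing is read from that share.

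Markers of some other marrow cells also differed between the libraries. Of 12 measured erythroid markers 11 were 2-fold higher or more (6.45% of all genes were), with a median log2 ratio of 2.07. That list summed to 477 CPM in the brequinar library and 244 CPM in the vehicle library, or to 289 and 83.1 CPM without Tfrc, the transferrin receptor gene, which did not pass. Of 10 measured resident macrophage markers 8 were 2-fold higher or more (6.45% of all genes were), with a median log2 ratio of 2.89. Their list summed to 925 CPM in the brequinar library and 640 CPM in the vehicle library. Without Vcam1 and Adgre1, which did not pass, it summed to 204 and 49.7 CPM. Vcam1 and Adgre1 together held 721 and 591 CPM, most of the list's sum. The reduced sums of both lists leave out genes because they did not pass, so a larger difference was fixed by that choice. Both measured megakaryocyte and platelet markers were higher, with sums of 9.84 and 3.25 CPM. Of 9 eosinophil, basophil and mast cell markers 3 were higher and 1 lower, with sums of 247 and 218 CPM. Beside these counts and those that follow, 6.45% of all genes were higher and 4.4% lower. Of 5 measured B and plasma cell markers 1 was higher and 1 lower, with sums of 20.8 and 34.5 CPM. The lower gene, Cd79b (9.86 and 26.2 CPM), gave most of the vehicle sum, and the higher gene was Vpreb1 (1.61 and 0.424 CPM). Both measured stromal and endothelial markers were lower, with sums of 12.2 and 34.3 CPM. Pecam1 (6.76 and 25.1 CPM) gave most of these sums. Below the filter, Lepr (31 and 4 counts) and Col1a1 (47 and 16 counts) of that list were higher. The part of these cell types in the stefin A values was not tested. Markers of keratinocytes and epithelia, in which stefin A is also expressed, had no measured gene among 8 and summed to 1.01 CPM in the brequinar library and 3.11 CPM in the vehicle library, with Lor at 0 counts in both. T and NK cell markers likewise had no measured gene among 9, with sums of 3.23 and 1.31 CPM.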

How the data were processed

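The authors deposited 1 table of raw counts, whole numbers of reads for each gene in 2 libraries. Per the labels' protocols, poly(A)-selected, strand-preserving libraries were read as paired ends of 101 bases. Per the submitters' processing notes, STAR 2.4.2a, Picard 1.99 and 2.2.4 and build mm10 were used. Which program counted reads, on which strand and with which annotation is not given in the sources used here. In all, the 4 closing lines that name no gene held 20.2% of reads in the brequinar library and 21.6% in the vehicle library and stayed out.

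Symbols, coordinates, exons and transcripts came from GENCODE mouse release 21 (GRCm38, the assembly mm10 names), matched by identifier without version. TMM factors from edgeR 4.0.16 in R 4.3.3 were 0.969 (brequinar) and 1.03 (vehicle). Genes that reached a mean of 1 CPM were set against a fixed 2-fold rule on log2 ratios computed after adding a prior count of 2. Folds are ratios of CPM without the prior count. Coding sequences were aligned with Biopython 1.88, in place of proteins, which were not used here. Other software was Python 3.11.15, numpy 2.4.6, pandas 2.3.3, scipy 1.17.1 and matplotlib 3.10.9. The ratio and its interval were run on counts simulated with counting error only, which is what the interval assumes. That run checks the computation and cannot show the effect of PCR copies or of spread between animals.

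The members and lists were chosen with earlier results of these data known. All members were named. From the other lists the rule took up to 4 genes with the largest absolute log2 ratio, and Ctsb, Ctsh, Ctsl, Ctss, Cstb and Cst3 whatever their values. Of the marker lists mainly counts and sums are given. Around the family it took the nearest measured gene on each side and those past 2-fold. Csta1, Gm7260, Gm15845, Gm10913, Casr, Cd86, Serpinb10, Tfrc, Vcam1, Adgre1, Hoxa9 and Meis1 are outside this rule and were chosen after their values were seen. The same holds for Cd79b, Vpreb1, Pecam1, Lepr, Col1a1 and Fam162a. Other scalings were tried, with DESeq2 1.42.0 size factors among them, and so were other prior counts, filters, thresholds, lengths and windows. Coding-transcript lengths, coding identity and the shared promoter run were added after the data were seen.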

Additional observations from a re-analysis of the deposited data

How the results depend on the processing

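All 9 members stayed at least 2-fold higher under every scaling, prior count and threshold tried, and 8 did with a filter at a mean of 5 CPM, which BC117090 does not pass. Their log2 ratios ranged from 4.03 to 7.93 over the other alternatives, and no direction changed. The summed family was 23.3-fold higher with total-count scaling, which moves every log2 ratio down by 0.092, and 24.3-fold higher with upper-quartile scaling.

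Without a filter 2470 genes were higher and 2074 lower, with a filter at 5 CPM 457 and 230, and at 4-fold 258 and 82. With the whole counting interval beyond 2-fold 288 genes were lower. Among the other cystatins total-count scaling gave 1 lower gene, and no filter gave 1 higher and 2 lower. Among cathepsins and legumain no filter gave 2 lower genes. Lgmn, the 1 higher gene of that list, was no longer counted with a filter at 5 CPM, the 4-fold rule or the interval rule. Without a filter 6 other protease inhibitors were higher and 1 was lower. Of the neighbours, 0 were higher with total-count scaling, the interval rule, 4-fold or a limit of 250 kb, and 2 were higher with no filter. With TMM factors and library sizes that left out the members and the 50 most abundant genes, 2 were also higher. That setting raises every CPM and so lets more genes past the filter. With the filter as reported, an alternative chosen after seeing the data, it gave 1, and 744 genes higher and 505 lower overall. None (0) were lower at 4-fold or within 250 kb, and 2 were lower without a filter.

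No paired analysis was possible because each group holds 1 library, and for the same reason no library was left out. Depth limits BC117090 and Gm5416, with 3 and 9 counts in the vehicle library. Exact stretches of 76 bases were shared by 7 members in place of 5.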

Other observations

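Some transcripts in and near the stefin A span lay below the filter. The antisense gene Gm15845 had 54 counts in the brequinar library and 3 in the vehicle library (19.2-fold, interval 6.22 to 95.9), and it overlaps the exons of BC100530. The processed pseudogene Gm10913 had 17 counts in the brequinar library and 23 in the vehicle library, with an interval of the ratio from 0.395 to 1.54. Casr, the calcium-sensing receptor gene 106.7 kb outside the span, had 1 count in the brequinar library and 10 in the vehicle library.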
